A study of Arabidopsis thaliana with 12 samples.

Results

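Isoxaben alone was compared directly with PEP3 alone in Arabidopsis thaliana seedlings. The aim was to describe which genes and functions differed between damage of the cell wall and perception of a peptide. Genes were tested where their FPKM averaged 0.5 or more over the 12 libraries of the study, which kept 20248 of 32833 genes. FPKM are fragments per kilobase of gene, scaled by library depth. The seedlings were of the wild-type accession Col-0, were 10 days old, had been grown several to a well in liquid medium, and were collected whole 6 h after treatment. The isoxaben group received 600 nM isoxaben, the PEP3 group 10 nM PEP3, another group both compounds at these doses, and the control group DMSO alone. No other doses or times were sampled. Differences in function therefore cannot be told apart from differences in the strength or timing of the responses. All 4 groups contained DMSO in the same amount, so that the isoxaben and the PEP3 seedlings had it too. Each group had 3 libraries, described by the study as biological replicates, and the number of seedlings in a library is not stated in the sources used here.

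Isoxaben is a herbicide that inhibits the cellulose synthase complexes of the plasma membrane, which spin the cellulose of the growing primary wall, and expanding tissue in which it acts comes under mechanical strain and activates wall integrity signalling. PEP3 is a plant elicitor peptide. Such peptides are cut from PROPEP precursor proteins in injured cells and are perceived outside the cell by the receptor kinases PEPR1 and PEPR2, which work with the co-receptor BAK1 and amplify pattern-triggered immunity. Jasmonate, salicylate and ethylene are the main hormones of both wounding and immunity in this plant.

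The libraries held between 16995775 and 22793764 fragments assigned to genes, and the correlation between replicates over genes was 0.986 to 0.991 in log2 values. Because whole seedlings were sampled, fewer cells of a type and less RNA per cell cannot be told apart. Markers of leaf, root, vascular and guard cells were all detected. The 12 leaf mesophyll markers summed to 28600 to 30900 FPKM in DMSO, 22300 to 24200 after isoxaben and 23900 to 28000 after PEP3. The 8 xylem markers summed to 86.8 to 98.2 FPKM after isoxaben and 76.8 to 82.8 after PEP3, while the ranges of the phloem, guard cell and root endodermis and cap markers overlapped. Ribosomal RNA genes took 0.392% of the fragments in PEP3 replicate 1, against at most 0.208% in any other library.

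Seedlings given isoxaben and seedlings given PEP3 differed in the expression of 4471 of the 20248 genes tested (22.1%, limma, Benjamini-Hochberg adjusted p under 0.05, n = 3 against 3). Of these, 2494 were higher after isoxaben (12.3% of all genes tested) and 1977 were higher after PEP3 (9.76%). Large differences lay mostly on the isoxaben side. A difference of at least 1 on the log2(FPKM + 1) scale was found for 575 genes higher after isoxaben (2.84%) and for 111 higher after PEP3 (0.548%). All differences below are isoxaben minus PEP3 on this scale, on which genes with low values show smaller changes than their true ratios. The 3 isoxaben and the 3 PEP3 libraries did not overlap for 7274 genes (35.9%), and 4381 of the called genes (21.6% of those tested) were among these. The excess of isoxaben-high genes over all called genes (55.8%) had no firm direction, since it was 46.9% with quantile normalization and 46.4% when trends on GC content and length were taken out of each library.

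**Figure D1:**
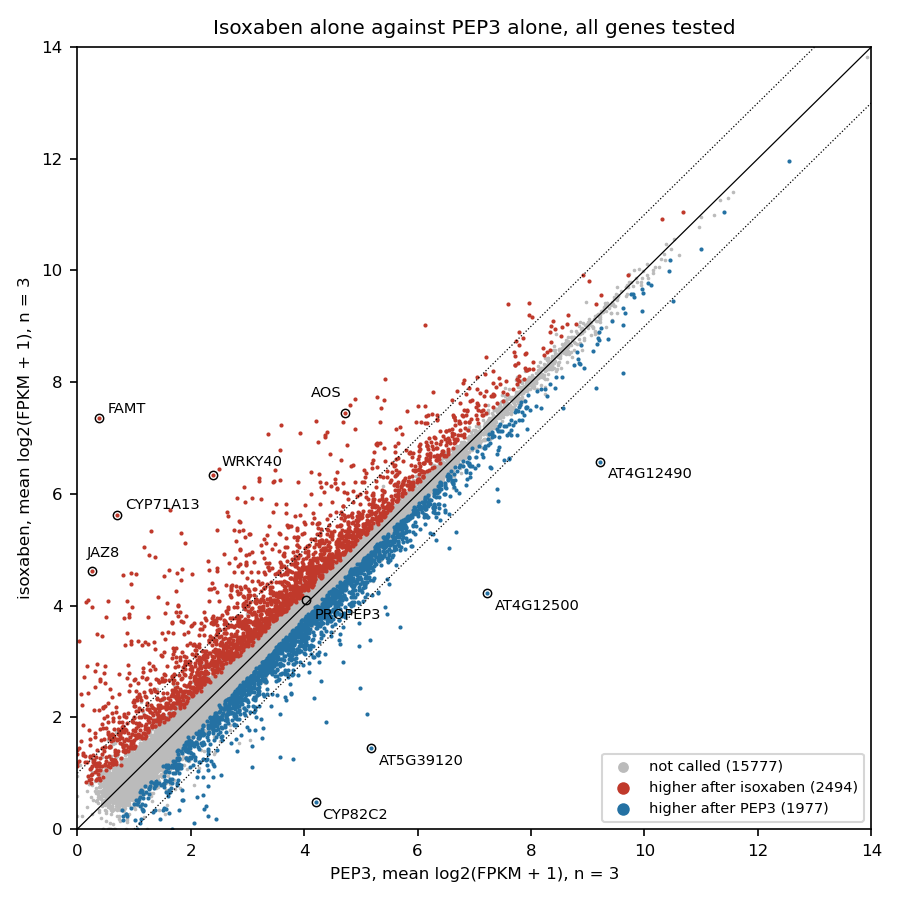
Each point is 1 of the 20248 genes tested, placed by its mean log2(FPKM + 1) after PEP3 (x axis) and after isoxaben (y axis), n = 3 libraries each, with the solid line at equal values and dotted lines at a difference of 1. The 575 genes called beyond the upper dotted line reach much farther from the diagonal than most of the 111 beyond the lower one, and PROPEP3 lies on the diagonal.

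The sides of the comparison were made up differently when each treatment was set against DMSO. These comparisons share the DMSO libraries with each other and their treated libraries with the direct comparison, so their values are given side by side only. Isoxaben changed 6577 genes against DMSO (32.5%), 17.3% of those tested upwards and 15.2% downwards. PEP3 changed 2894 (14.3%), 7.84% upwards and 6.45% downwards. Of the 2494 genes higher after isoxaben, 1514 (60.7%) were raised by isoxaben and not called after PEP3, and 470 (18.8%) were raised by both, with median changes against DMSO of 1.33 after isoxaben and 0.55 after PEP3. Of the 1977 genes higher after PEP3, 1143 (57.8%) were lowered by isoxaben and not called after PEP3. Another 231 of them (11.7%) were raised by PEP3 and not called after isoxaben, and 77 were raised by both. Most of the PEP3-high genes were thus genes that isoxaben lowered rather than genes that PEP3 raised.

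Of the 10 genes with the largest differences on the isoxaben side, FAMT, JAZ8 and NATA1 were on a jasmonate list, and a P450 gene, CYP82C2, and a germin-like gene, AT5G39120, had the largest differences on the PEP3 side. The 250 bases upstream of the annotated gene start are shown for FAMT, JAZ8, CYP82C2 and AT5G39120, read 5′ to 3′ on the gene's strand from the RefSeq TAIR10.1 genome, to set promoters of genes far apart in opposite directions side by side. Capitals mark TTGAC, the core of the W-box bound by WRKY factors, CACGTG, the G-box bound by MYC and other factors, GCCGCC, the GCC-box bound by ERF factors, and CGCGT, a core bound by CAMTA factors, on either strand. The windows are chr3:16379321-16379570 (plus strand) for FAMT, chr1:10596102-10596351 (plus) for JAZ8, chr4:15462100-15462349 (plus) for CYP82C2 and chr5:15663528-15663777 (minus) for AT5G39120.
FAMT: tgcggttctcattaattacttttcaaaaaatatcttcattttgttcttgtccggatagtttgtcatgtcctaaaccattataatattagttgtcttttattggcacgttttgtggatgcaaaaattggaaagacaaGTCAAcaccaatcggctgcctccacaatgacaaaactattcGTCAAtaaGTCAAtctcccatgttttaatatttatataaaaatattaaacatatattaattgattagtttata
JAZ8: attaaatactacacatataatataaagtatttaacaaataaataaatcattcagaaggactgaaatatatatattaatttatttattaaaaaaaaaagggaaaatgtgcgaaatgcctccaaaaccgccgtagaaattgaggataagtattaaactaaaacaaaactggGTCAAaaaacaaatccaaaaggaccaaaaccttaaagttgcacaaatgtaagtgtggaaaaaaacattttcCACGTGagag
CYP82C2: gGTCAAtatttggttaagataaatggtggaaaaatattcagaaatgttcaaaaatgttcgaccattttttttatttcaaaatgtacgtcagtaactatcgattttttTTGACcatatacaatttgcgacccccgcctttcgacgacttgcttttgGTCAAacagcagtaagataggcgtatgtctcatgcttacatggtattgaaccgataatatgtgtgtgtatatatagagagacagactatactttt
AT5G39120: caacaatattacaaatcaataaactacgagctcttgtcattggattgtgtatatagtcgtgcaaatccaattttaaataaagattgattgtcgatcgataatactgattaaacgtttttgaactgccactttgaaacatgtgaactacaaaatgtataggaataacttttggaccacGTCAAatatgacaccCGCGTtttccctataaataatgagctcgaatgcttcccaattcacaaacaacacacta
FAMT and CYP82C2 each held 3 matches to TTGAC, JAZ8 held 1 TTGAC and, starting 10 bases before the gene start, 1 CACGTG, and AT5G39120 held 1 TTGAC and 1 CGCGT.

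Among all 19524 tested protein-coding genes with such a window, 45.2% held TTGAC, 7.23% CACGTG, 1.95% GCCGCC and 7.45% CGCGT. Of the 563 protein-coding genes at least 1 higher after isoxaben, 56.3% held TTGAC, 11.4% CACGTG, 3.91% GCCGCC and 14.9% CGCGT. Of the 103 at least 1 higher after PEP3, 57.3% held TTGAC, 6.8% CACGTG and 6.8% CGCGT, and GCCGCC was not found. The genes of both sides thus held TTGAC in similar shares, and CGCGT was found in a larger share of the isoxaben-high genes. These shares are a description of the letters in the windows and were not tested.

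Genes of jasmonate synthesis were higher after isoxaben than after PEP3. Jasmonate is made from plastid lipids by lipoxygenases (LOX), allene oxide synthase (AOS), allene oxide cyclases (AOC) and the reductase OPR3, and is finished in the peroxisome. Of 15 tested members, 11 were higher after isoxaben and 1, KAT2, was higher after PEP3, with a median difference of 1.80 against -0.01 over all genes tested. LOX4 had 24.4, 25.3 and 20.0 FPKM in the isoxaben libraries and 0.750, 0.772 and 1.29 in the PEP3 libraries. It stood at 0.898, 1.26 and 1.21 FPKM in DMSO, so the PEP3 libraries lay at the DMSO level and all isoxaben libraries far above, a difference of 3.65 (SE 0.14, limma adjusted p 3.22e-09). AOS had 163, 214 and 147 FPKM after isoxaben, 26.6, 23.9 and 25.6 after PEP3, and 34.5, 47.7 and 55.9 in DMSO. Each PEP3 library was below every DMSO library and each isoxaben library above, and AOS was among the genes called in opposite directions against DMSO. AOC3, which had 132, 157 and 119 FPKM after isoxaben and 13.0, 15.3 and 14.6 after PEP3, differed by 3.15 (SE 0.11, adjusted p 1.33e-09). KAT2, a peroxisomal thiolase of fatty acid breakdown, differed by -0.21 (adjusted p 0.0327), a call lost under 9 of the 28 processing alternatives tried.

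The JAZ repressors, which are themselves induced by jasmonate and restrain its transcription factors, followed the same pattern. Of 13 tested, 12 were higher after isoxaben, with a median difference of 2.04. JAZ8 had 23.1, 31.6 and 17.8 FPKM after isoxaben and 0, 0.285 and 0.331 after PEP3, a difference of 4.36 (SE 0.25, limma adjusted p 6.89e-08). The PEP3 values rest on at most 5 fragments, and the DMSO libraries, at 0, 0.619 and 1.07 FPKM, were as low. JAZ10 had 30.1, 34.1 and 23.7 FPKM after isoxaben and 1.50, 1.29 and 1.40 after PEP3. JAZ1, far more abundant, had 157, 181 and 138 FPKM after isoxaben and 15.4, 17.3 and 20.4 after PEP3. JAZ12 showed the smallest called difference, 0.44 (adjusted p 0.000824), and JAZ11 did not pass the test.

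All 7 tested genes of jasmonate inactivation were higher after isoxaben, with a median difference of 2.19. They encode enzymes that oxidise, cleave or sulfate the active hormone or its precursors. CYP94C1, which oxidises jasmonoyl-isoleucine, had 29.1, 32.8 and 23.9 FPKM after isoxaben and 1.60, 1.55 and 1.62 after PEP3, a difference of 3.50 (SE 0.14, limma adjusted p 4.37e-09). The amidohydrolase genes ILL6 and IAR3 differed by 3.03 and 2.19, and the jasmonate oxidase gene JOX3 by 2.43.

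Of 9 tested genes known as outputs of jasmonate signalling, 7 were higher after isoxaben, with a median difference of 3.65. FAMT (AT3G44860), a methyltransferase gene for farnesoic acid, showed the largest difference of all called genes. Its isoxaben libraries held 157, 234 and 118 FPKM and its PEP3 libraries 0.413, 0.380 and 0.129, which rest on 12, 11 and 4 fragments. DMSO libraries held 1.31, 5.98 and 7.22 FPKM, so that every PEP3 library was below and every isoxaben library above all of DMSO. The difference was 6.98 (SE 0.37, limma adjusted p 3.99e-08). FAMT is 88.2% identical to AT3G44870 over 71.4% of its length, and how fragments were divided between near-identical genes is uncertain. CLH1, a chlorophyllase gene induced by jasmonate, had 119, 207 and 137 FPKM after isoxaben, 11.0, 9.98 and 12.3 after PEP3 and 21.2, 23.3 and 27.4 in DMSO, and showed the same order. TAT3, an aminotransferase gene, had 134, 188 and 94.4 FPKM after isoxaben and 8.79, 9.98 and 8.96 after PEP3. NATA1, an acetyltransferase gene, was the least even, with 67.3, 192 and 49.2 FPKM after isoxaben against 3.28, 7.17 and 4.23 after PEP3. The vegetative storage protein genes VSP1 and VSP2, classical late jasmonate outputs, did not pass the test. VSP1 had 3.71, 2.47 and 1.52 FPKM after isoxaben and 2.60, 1.11 and 1.43 after PEP3, and the groups overlapped (difference 0.38, adjusted p 0.447).

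**Figure D2:**
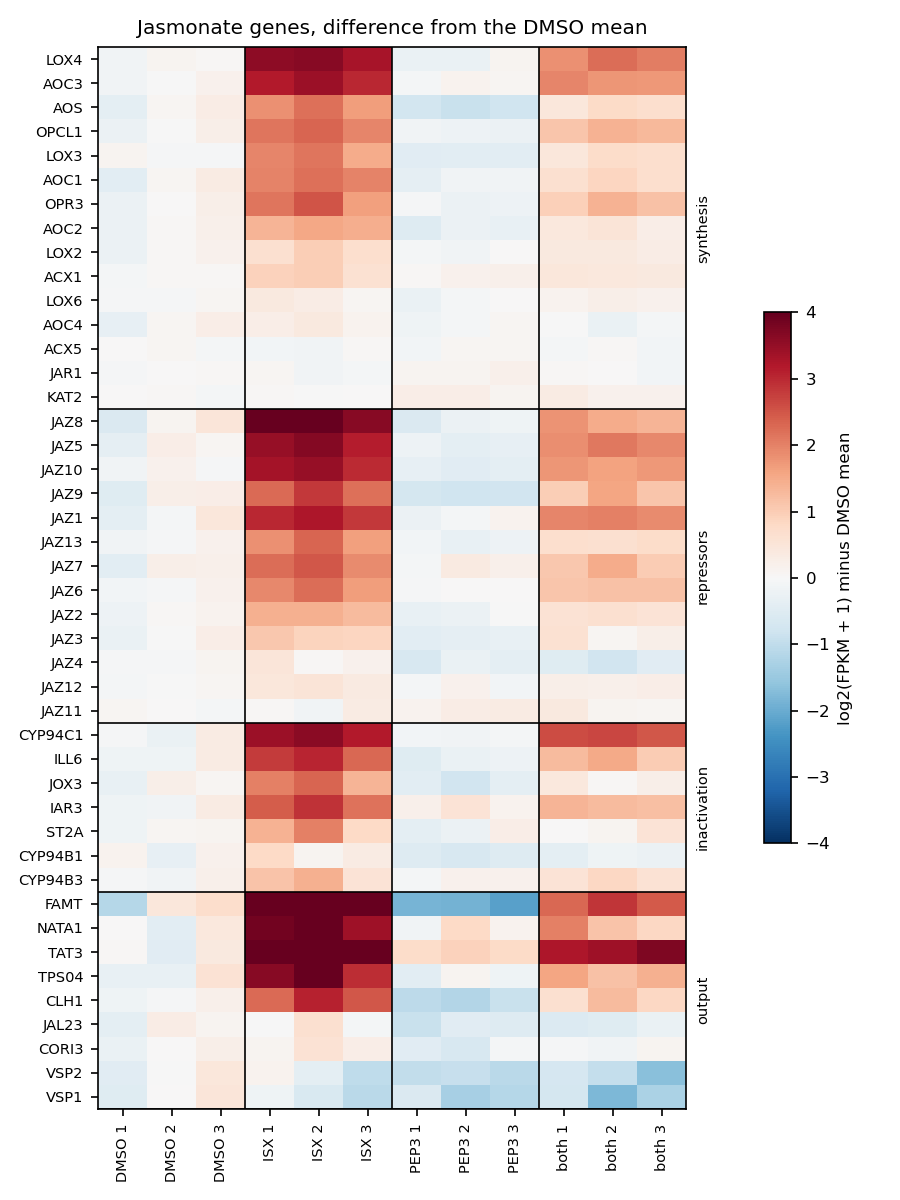
Rows are the 44 tested jasmonate genes by role and columns the 12 libraries, coloured by log2(FPKM + 1) minus the mean of the DMSO libraries, with colours saturated at 4. The isoxaben columns are red for most genes, the PEP3 columns are near white or blue, and the columns of the combined treatment lie between, while VSP1 and VSP2 at the bottom are not red in any treatment.

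Ethylene synthesis and the ERF factors that answer it and other stresses were also higher after isoxaben. Of 10 tested stress ERF factors, 9 were higher after isoxaben, with a median difference of 1.83. ERF13 had 17.5, 16.3 and 14.3 FPKM after isoxaben and 0.308, 0.464 and 0.623 after PEP3 (difference 3.54, SE 0.23, limma adjusted p 1.76e-07), and ERF1 differed by 3.20. Of 15 tested genes of ethylene synthesis and perception, 6 were higher after isoxaben. These were ACS2, ACS6, ACS7 and ACS11, which encode synthases of the precursor ACC, the ACC oxidase gene ACO4 (mean 688 FPKM after isoxaben and 250 after PEP3), and EBF1, which encodes an F-box protein of ethylene signalling. The ACS genes differed by 1.26 to 2.27.

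Salicylate genes were mostly higher after isoxaben. Of 18 tested, 12 were higher after isoxaben and 3 after PEP3, with a median difference of 0.86. ICS1, the isochorismate synthase of salicylate synthesis, had 11.1, 12.0 and 7.45 FPKM after isoxaben and 5.00, 3.34 and 3.99 after PEP3, which overlapped the 4.23, 3.41 and 4.96 of DMSO. Its difference was 1.12 (SE 0.16, limma adjusted p 0.000236). EDS5, a transporter gene of the same pathway, differed by 1.88, and the regulator genes SARD1 and CBP60G by 1.14 and 0.99. On the PEP3 side were DMR6, which encodes an enzyme that hydroxylates salicylate (-0.69), SARD4, a gene of pipecolate synthesis (-0.36), and NIMIN3, which encodes a partner of NPR1 (-0.42, a call lost under 5 of the 28 alternatives). PR1, the common marker of salicylate responses, was low in all libraries, with 2.50, 1.09 and 1.54 FPKM after isoxaben and 1.46, 2.73 and 2.72 after PEP3, and did not pass the test (adjusted p 0.595). Of the 5 pathogenesis-related genes, PR2 was called, and this was lost under 10 of the 28 alternatives.

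The indole pathways differed by branch. Camalexin, the main phytoalexin of this plant, and 4-hydroxyindole-3-carbonyl nitrile, a cyanogenic relative, share the early step that makes indole-3-acetaldoxime and then part. CYP71A13, the P450 that starts the camalexin branch, had 45.3, 100 and 24.8 FPKM after isoxaben and 0.115, 1.15 and 0.785 after PEP3 (difference 4.93, SE 0.40, limma adjusted p 1.24e-06). CYP71B15, which completes camalexin, had 173, 312 and 132 FPKM after isoxaben and 22.5, 32.2 and 27.4 after PEP3, so that in both genes every isoxaben library stood above every PEP3 library. CYP71A12, the neighbouring paralog that serves the nitrile branch, went the other way, with 31.5, 54.3 and 25.6 FPKM after isoxaben and 59.8, 85.5 and 96.5 after PEP3 (-1.14, adjusted p 0.00350). Both treatments raised CYP71A12 above the 1.77, 3.27 and 2.67 FPKM of DMSO. CYP82C2, the hydroxylase that ends the nitrile branch, had 0.195, 0.901 and 0.190 FPKM after isoxaben and 9.18, 21.9 and 26.1 after PEP3, and was the most PEP3-high gene of the comparison (-3.73, SE 0.29, adjusted p 8.61e-07). FOX1, the oxidase between them, did not differ detectably, with 29.6, 42.5 and 19.1 FPKM after isoxaben and 21.3, 33.7 and 33.1 after PEP3 (0.01, SE 0.24). CYP71A13 and CYP71A12 are 87.0% identical over 89.2% of the length, CYP82C2 and CYP82C4 are 86.9% identical, and a gene on the opposite strand covers 27.5% of CYP71A13, so the values of these genes are uncertain to that extent.

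Upstream of the split, the shared enzyme genes CYP79B2 and CYP79B3 were higher after isoxaben by 1.16 and 0.92. CYP79B2 had 203, 322 and 184 FPKM after isoxaben and 93.0, 112 and 103 after PEP3. Of 10 tested genes of tryptophan synthesis, 3 were higher after isoxaben, ASA1, ASB1 and PAI2, with ASA1, the rate-limiting anthranilate synthase subunit, differing by 1.57. In all, 6 of the 11 members of the camalexin and 4-hydroxyindole group were higher after isoxaben and 2 after PEP3.

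**Figure D3:**
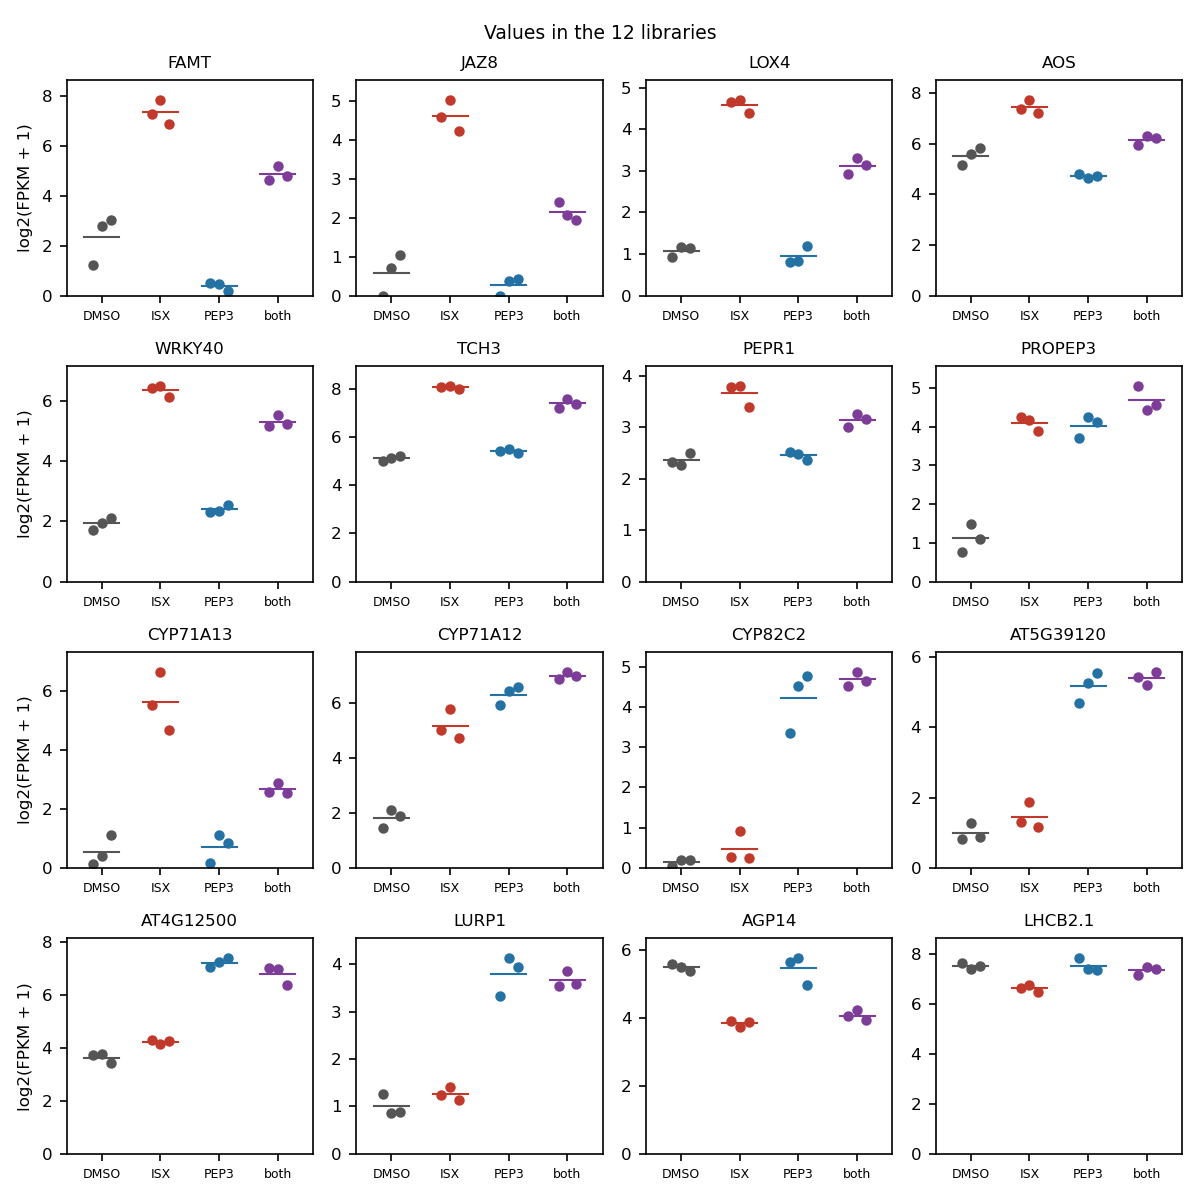
Each panel shows 1 gene, with log2(FPKM + 1) on the y axis starting at 0, a point per library and a bar at the mean of 3, for DMSO, isoxaben (ISX), PEP3 and both. CYP71A13 and CYP71A12, and likewise JAZ8 and CYP82C2, show opposite orders of isoxaben and PEP3, PROPEP3 is at the same level after each, and LHCB2.1 and AGP14 are lower after isoxaben than after PEP3.

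Glucosinolates are sulfur-rich defence compounds made from tryptophan or from methionine. Of 15 tested genes of the indole branch, 12 were higher after isoxaben, with a median difference of 0.63. MYB51, a transcription factor of this branch, had 60.9, 68.7 and 63.5 FPKM after isoxaben, 14.7, 20.7 and 23.7 after PEP3 and 10.7, 12.1 and 12.0 in DMSO (difference 1.68, limma adjusted p 8.16e-07). CYP81F2, which modifies indole glucosinolates for pathogen defence, was raised by both treatments but more by isoxaben (98.4, 102 and 78.5 FPKM against 37.5, 50.7 and 50.6). Of 19 tested genes of the methionine-derived branch, 15 were higher after isoxaben, with a median difference of 0.40. Here 16 genes were lower after PEP3 than in DMSO and 7 were lower after isoxaben, and the median change against DMSO was -0.53 after PEP3 and -0.13 after isoxaben. MAM1, the chain-elongating synthase gene, had a mean of 193 FPKM in DMSO, 151 after isoxaben and 99.5 after PEP3. Its regulator MYB28 was the exception, higher after PEP3 by 0.29 on the log2 scale with a call that was lost under 7 of the 28 alternatives.

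The receptor of the peptide and the machinery of pattern recognition were higher after isoxaben than after the peptide itself. Of 15 tested receptor and immune signalling genes, 12 were higher after isoxaben, with a median difference of 0.45. PEPR1 had 12.8, 13.0 and 9.46 FPKM after isoxaben, 4.73, 4.57 and 4.16 after PEP3 and 3.98, 3.78 and 4.66 in DMSO. Every isoxaben library stood above every other, and the PEP3 libraries overlapped DMSO (difference 1.21, SE 0.12, limma adjusted p 8.73e-06). PEPR2 had 5.15, 6.74 and 4.64 FPKM after isoxaben and 1.06, 1.41 and 0.689 after PEP3 (difference 1.67, SE 0.15, adjusted p 4.41e-06). The oxidase gene RBOHD, which makes the oxidative burst, differed by 1.1 and the co-receptor gene BAK1 by 0.45. The flagellin receptor gene FLS2 did not pass the test (0.27, adjusted p 0.0791).

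The precursors of the peptides had a median difference of 0.59. PROPEP3, the precursor of the applied peptide, had 18.2, 17.0 and 13.9 FPKM after isoxaben, 12.1, 18.0 and 16.4 after PEP3, and 0.715, 1.82 and 1.15 in DMSO. Both treatments raised it and their libraries overlapped (difference 0.08, SE 0.20, adjusted p 0.829). PROPEP1 was higher after isoxaben, with 7.34, 6.92 and 5.54 FPKM against 4.05, 3.49 and 4.24 (difference 0.62, limma adjusted p 0.00150). PROPEP2 had 6.60, 12.0 and 7.05 FPKM after isoxaben and 3.55, 5.53 and 4.82 after PEP3 (difference 0.73, adjusted p 0.0228), a call lost under 5 of the 28 alternatives, among them those without isoxaben replicate 2 and without PEP3 replicate 1. Of the 7 precursors tested, 4 were higher after isoxaben, PROPEP1, PROPEP2, PROPEP4 and PROPEP7, and this count was 2 without isoxaben replicate 2.

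Early pattern-response genes, which rise within minutes of elicitation in other work, were nearly all higher after isoxaben at 6 h. Of 17 tested, 15 were higher, with a median difference of 1.14. WRKY40, a transcription factor gene, had 84.7, 89.4 and 68.1 FPKM after isoxaben, 3.96, 4.03 and 4.87 after PEP3 and 2.27, 2.89 and 3.34 in DMSO (difference 3.94, SE 0.13, limma adjusted p 1.33e-09). WRKY33, a regulator of camalexin genes, differed by 1.96 and the kinase gene MPK3 by 0.99. FRK1, a receptor-like kinase gene used as a flagellin marker, was raised by both treatments and differed by 0.85. Over the whole WRKY family, 25 of 59 tested were higher after isoxaben (42.4%) and 5 after PEP3 (8.47%). These shares were 12.3% and 9.76% over all genes tested, so the PEP3 share was near that of all genes. The 5 PEP3-high members were WRKY3, WRKY47, WRKY49, WRKY50 and WRKY60. WRKY60, the close relative of WRKY40, had mean levels of 6.96 FPKM after isoxaben, 18.2 after PEP3 and 7.06 in DMSO (-1.27, adjusted p 1.44e-06).

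Genes that respond to touch and calcium formed another isoxaben-high group. Of 15 tested, 14 were higher after isoxaben, with a median difference of 1.03, and isoxaben raised all 15 above DMSO while PEP3 raised 5. TCH3, a calmodulin-like gene induced by touch, had 266, 278 and 254 FPKM after isoxaben, 41.8, 44.4 and 39.7 after PEP3, and 30.8, 33.5 and 36.4 in DMSO (difference 2.63, SE 0.09, limma adjusted p 1.33e-09). TCH4, a xyloglucan-modifying enzyme gene also known as XTH22, had 61.7, 65.7 and 52.9 FPKM after isoxaben and 5.03, 7.11 and 6.04 after PEP3. A gene on the opposite strand covers 43.9% of TCH3, and whether counting used strand is not stated in the sources used here. Of 11 tested heat shock genes, 8 were higher after isoxaben with a median difference of 0.66, a count that was 4 without isoxaben replicate 2. Of 14 abscisic acid response genes, 7 were higher after isoxaben, and 3 without that library.

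**Figure D4:**
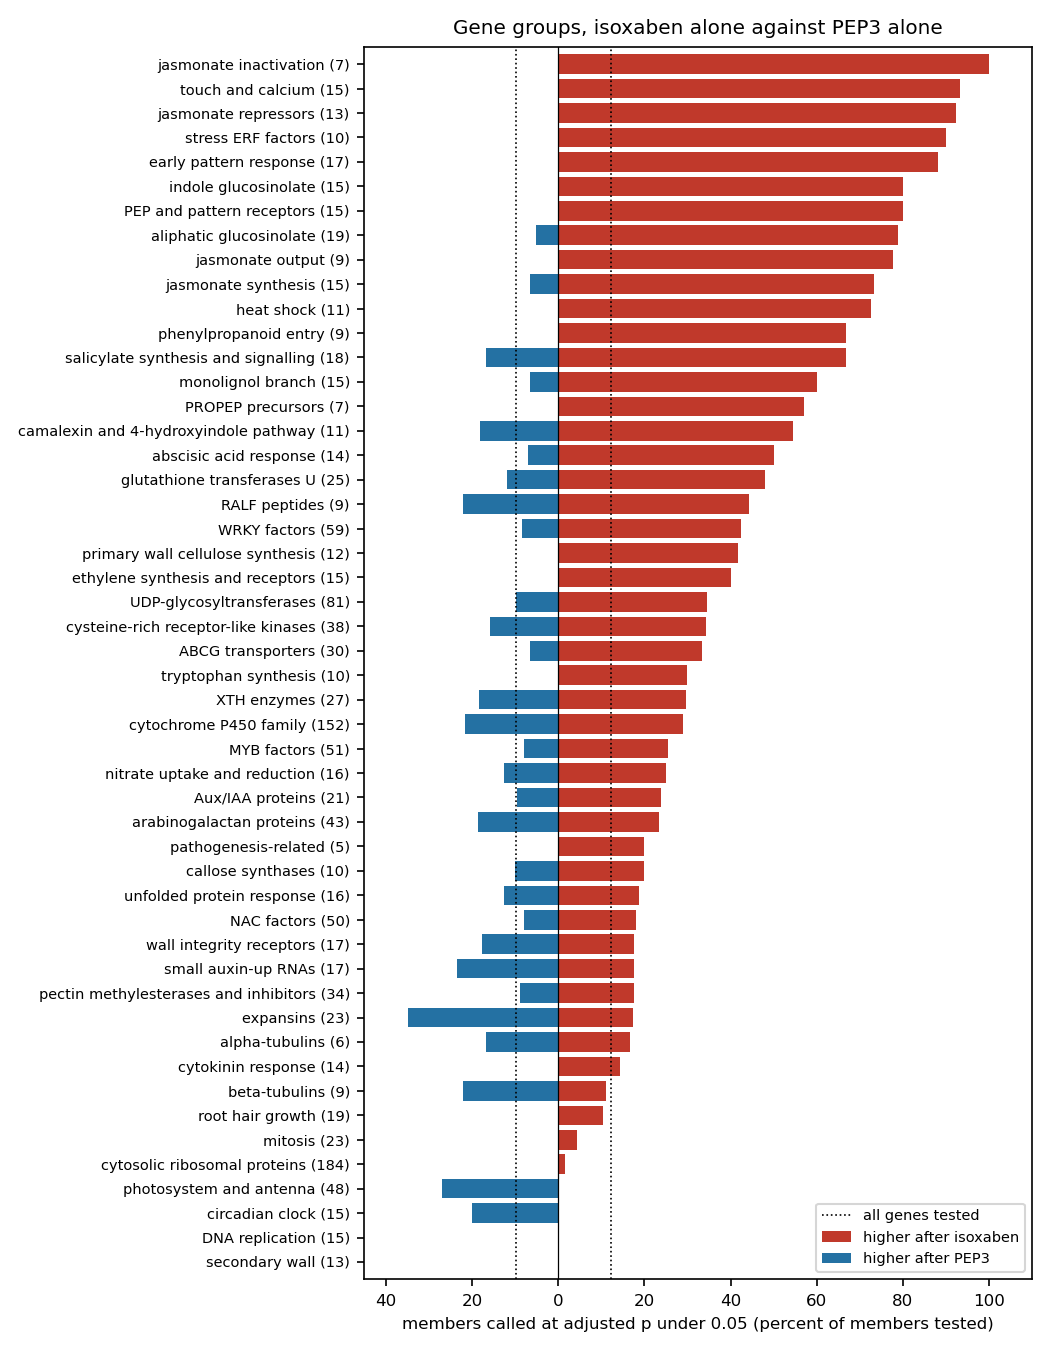
Bars give the percentage of tested members (number in brackets) of each gene group that were called higher after isoxaben (right, red) or after PEP3 (left, blue), and dotted lines mark the same over all genes tested, 12.3 and 9.76%. Jasmonate, touch, ERF and pattern-response groups reach far beyond the line on the right, while expansins and photosystem genes pass it on the left.

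Genes of primary wall cellulose synthesis had a median difference of 0.14. CESA1, CESA3 and CESA6 encode the catalytic subunits of the primary wall complex that isoxaben inhibits. CESA1 had 65.3, 64.3 and 64.9 FPKM after isoxaben and 60.6, 55.2 and 62.9 after PEP3 (difference 0.12, adjusted p 0.194). CESA3 differed by 0.15 (adjusted p 0.117), with 78.7, 79.8 and 78.9 FPKM after isoxaben and 71.1, 69.0 and 73.6 after PEP3. CESA6 had 49.5, 52.2 and 49.3 FPKM after isoxaben and 42.5, 42.6 and 44.6 after PEP3, a difference of 0.22 (limma adjusted p 0.0212) that was lost under 6 of the 28 alternatives. Isoxaben libraries lay above PEP3 libraries in all 3 genes by small amounts, as they did for 18.4% of all genes tested. The DMSO means of CESA1, CESA3 and CESA6 were 66.1, 76.4 and 49.7 FPKM. Against DMSO, isoxaben changed none of them detectably, and CESA6 was called lower after PEP3 (-0.20, limma adjusted p 0.0468). Of 12 tested genes of primary wall cellulose synthesis, 5 were higher after isoxaben (CESA2, CESA6, KOR1, CTL1 and STL1), a count of 2 without isoxaben replicate 2. The STL1 call was lost under 14 of the 28 alternatives. None of 13 secondary wall genes was called with limma, 2 had an unadjusted p under 0.05, and voom called none of them.

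Receptors assigned to wall integrity sensing were called in both directions. Of 17 tested, 3 were higher after isoxaben (LLG1, MIK2 and FER) and 3 after PEP3 (FEI1, WAK1 and WAK2). Each count is 17.6% of those tested, against 12.3% and 9.76% over all genes tested. THE1, a receptor kinase known for its role in isoxaben responses, had 9.35, 9.74 and 8.70 FPKM after isoxaben and 7.57, 8.97 and 10.0 after PEP3, and the groups overlapped (difference 0.07, adjusted p 0.682). FER, the related kinase FERONIA, had 60.6, 62.4 and 61.4 FPKM after isoxaben and 47.4, 52.8 and 56.6 after PEP3, a difference of 0.23 (limma adjusted p 0.0284) that was lost under 12 of the 28 alternatives. MIK2, another receptor kinase of this group, had 67.1, 56.0 and 63.3 FPKM after isoxaben and 43.4, 48.7 and 50.0 after PEP3 (difference 0.38). The wall-associated kinase genes WAK1 and WAK2, whose products bind pectin, were higher after PEP3 by 0.40 and 0.48 on the log2 scale.

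Among remodelling enzymes, XTH genes, whose products cut and rejoin xyloglucan, had 8 of 27 members higher after isoxaben and 5 higher after PEP3. XTH23 and XTH18 rose with isoxaben in the manner of TCH4 and differed by 2.76 and 2.27, whereas the PEP3-high members were XTH4, XTH6, XTH7, XTH8 and XTH28, with XTH8 and XTH6 differing by -0.63 and -0.59. Expansins, which loosen the wall during growth, showed 4 of 23 higher after isoxaben and 8 higher after PEP3. The expansin-like gene EXLA1 had 39.7, 45.0 and 41.9 FPKM after isoxaben and 9.43, 12.7 and 15.7 after PEP3 (difference 1.69), and EXLA2, EXLA3 and ATEXPA12 also lay on that side. EXPA8 had 0.773, 0.270 and 0.307 FPKM after isoxaben, 2.84, 2.17 and 2.82 after PEP3 and 2.73, 2.93 and 3.71 in DMSO (-1.33, limma adjusted p 0.000188). EXPA3, EXPB1 and EXPA11 differed by -1.08, -0.97 and -0.92. Of 43 arabinogalactan protein genes, 10 were higher after isoxaben and 8 after PEP3. AGP14, which encodes a short arabinogalactan peptide, had 13.9, 12.4 and 13.8 FPKM after isoxaben, 49.0, 53.2 and 30.1 after PEP3 and 46.6, 44.4 and 40.5 in DMSO (-1.61). For EXPA8 and AGP14 the PEP3 libraries stood with DMSO and the isoxaben libraries below. Of 34 pectin methylesterase and inhibitor genes, 6 were higher after isoxaben (17.6%) and 3 after PEP3 (8.82%). Over all genes tested these shares were 12.3% and 9.76%. They were 29.6% and 18.5% for XTH genes, 17.4% and 34.8% for expansins, and 23.3% and 18.6% for arabinogalactan protein genes.

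Phenylpropanoids supply lignin and soluble phenolics. Of 9 tested genes of the entry steps, 6 were higher after isoxaben, with a median difference of 0.60, and of 15 monolignol genes, 9 were higher after isoxaben and 1, CAD4, after PEP3. PAL1, the entry enzyme gene, had 218, 263 and 185 FPKM after isoxaben, 108, 121 and 114 after PEP3 and 78.8, 87.1 and 86.1 in DMSO (difference 0.93, limma adjusted p 2.31e-05). CCR2, a cinnamoyl-CoA reductase gene linked to pathogen responses, differed by 2.12, while CCR1, its developmental relative, differed by 0.50. Against DMSO, isoxaben raised 10 of the monolignol genes and PEP3 raised 8.

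Photosystem and antenna genes lay on the PEP3 side. Of 48 tested, 13 were higher after PEP3 (27.1%), with a median difference of -0.21, and 46 were lower after isoxaben than in DMSO and 26 lower after PEP3. LHCB2.1, an antenna protein gene, had 97.8, 106 and 87.7 FPKM after isoxaben, 227, 168 and 162 after PEP3 and 200, 167 and 180 in DMSO (-0.92, limma adjusted p 0.000120). The count was 8 without PEP3 replicate 2 and 20 when GC and length trends were taken out. LHCB2.1 is 92.2% identical to LHCB2.2. The 12 mesophyll markers summed above include antenna genes, LHCB2.1 among them, so their sums are not separate from these genes. Of the 12 markers, 4 were called higher after PEP3, and their part in the result was not tested. Growth and housekeeping groups had few genes called between isoxaben and PEP3. None of 15 DNA replication genes was called with limma, none had an unadjusted p under 0.05, and voom called none. Of 184 cytosolic ribosomal protein genes 3 were called, RPS16B, RPS8B and AT3G03600, all higher after isoxaben and all 3 lost in some alternatives. Of 23 mitosis genes 1 was called, KNOLLE, higher after isoxaben, and this was lost under 6 of the 28 alternatives. The isoxaben mean lay above the PEP3 mean in 21 of the 23, against 9706 of the 20248 genes tested. Against DMSO, 7 of the 23 were called lower after PEP3 and 1 after isoxaben. Over all genes tested, 6.45% were called lower after PEP3 and 15.2% after isoxaben.

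The unfolded protein response was raised by both treatments and differed in single genes. Isoxaben raised 15 of 16 tested members against DMSO and PEP3 raised 12, against 17.3% and 7.84% of all genes tested. Directly compared, 3 members were higher after isoxaben (18.8%) and 2 after PEP3 (12.5%), near the 12.3% and 9.76% of all genes tested. BZIP60, a transcription factor gene of this response, was higher after isoxaben by 0.95, as were ERDJ3A and BZIP28 by 0.67 and 0.27, where the BZIP28 call was lost under 16 of the 28 alternatives, and the protein disulfide isomerase genes PDIL1-1 and PDIL2-1 were higher after PEP3 by 0.53 and 0.31 on the log2 scale.

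The remaining genes among the 10 most isoxaben-high were ABCG40, ASK11, AT2G38240, AT5G22520 and AT1G59950. ABCG40, a transporter gene, had 36.3, 62.6 and 27.0 FPKM after isoxaben and 1.39, 1.64 and 1.34 after PEP3 (difference 4.04, limma adjusted p 6.63e-08). ASK11, which encodes a SKP1-like subunit of ubiquitin ligases, had 45.4, 82.7 and 36.5 FPKM against 1.95, 2.62 and 1.82, but is 99.4% identical to ASK12. AT2G38240, listed as ANS and described as a probable 2-oxoglutarate-dependent dioxygenase, had 16.2, 20.3 and 11.6 FPKM against 0.217, 0.0729 and 0.0677. This gene was on no jasmonate list, but JOX3, which was on such a list, is in the same family of the deposited table. AT5G22520, which has no described function in the deposited table, had 14.2, 18.2 and 16.1 FPKM against 0.0835, 0.168 and 0.156, where the PEP3 values of AT5G22520 are 1 or 2 fragments. AT1G59950, annotated as an aldo/keto reductase, had 28.7, 50.0 and 23.3 FPKM against 1.3, 0.834 and 1.72. In each of the 5 the PEP3 libraries overlapped or lay below the DMSO libraries.

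The 10 most PEP3-high genes, CYP82C2 among them, were mostly genes that PEP3 raised from a low level and that isoxaben left near it. AT5G39120, a germin-like protein gene (chromosome 5, 15662582 to 15663527), had 25.1, 37.7 and 45.3 FPKM after PEP3, 1.48, 2.64 and 1.26 after isoxaben and 0.782, 1.40 and 0.846 in DMSO (-3.72, SE 0.21, limma adjusted p 6.63e-08). Its neighbour AT5G39110 had 28.1, 34.8 and 37.9 FPKM after PEP3 and 3.12, 3.64 and 2.82 after isoxaben (-3.04). The lipid transfer protein genes AT4G12500 and AT4G12490, annotated as pEARLI1-like, are also neighbours. AT4G12490 was the most abundant of the 10, with 543, 603 and 637 FPKM after PEP3, 96.6, 83.8 and 104 after isoxaben and 51.1, 49.0 and 38.5 in DMSO (-2.64), and AT4G12500 differed by -3.00. AT5G39120 is 97.1% identical to AT5G39150 and 92.9% to AT5G39110, and the pEARLI1-like pair is 87.9% identical over the aligned part, so the division of fragments within these clusters is uncertain.

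LURP1, a gene named for its rise in infection by a downy mildew pathogen, had 9.11, 16.5 and 14.3 FPKM after PEP3 and 1.35, 1.66 and 1.2 after isoxaben (-2.54, limma adjusted p 4.38e-07). LLP, a legume lectin-like gene, had 13.3, 19.1 and 30.3 FPKM after PEP3 and 3.33, 4.17 and 1.42 after isoxaben (-2.46). AT1G26240, annotated as an extensin-like protein, had 21.2, 35.5 and 37.5 FPKM after PEP3 and 3.03, 7.79 and 4.42 after isoxaben (-2.45), and was raised by both treatments. FOX2, a berberine bridge enzyme-like gene near FOX1, had 1.97, 5.91 and 6.79 FPKM after PEP3 and 0.145, 0.253 and 0 after isoxaben (-2.27). GASA6, a gibberellin-regulated peptide gene, was of the other kind. It had 9.85, 8.51 and 15.6 FPKM after PEP3, within or above the 8.56, 6.28 and 8.01 of DMSO, and 1.91, 1.28 and 1.21 after isoxaben (-2.29, adjusted p 6.08e-06).

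Opposite calls against the same DMSO libraries were few. Both comparisons share these DMSO libraries, which works against opposite signs, so the low count is partly a matter of design. Isoxaben raised and PEP3 lowered 46 genes (0.227% of those tested), and isoxaben lowered and PEP3 raised 23 (0.114%). Genes were ordered within each set by the smaller of their changes against DMSO. FAMT and CLH1 came first in the first set, followed by GPT2, a plastid glucose-6-phosphate transporter gene, with 134, 185 and 104 FPKM after isoxaben, 21.3, 18.2 and 20.8 after PEP3 and 36.3, 36.7 and 44.7 in DMSO, and then by AOS. First in the second set came LHB1B1, an antenna protein gene, with 31.7, 37.0 and 27.1 FPKM after isoxaben, 105, 103 and 74.5 after PEP3 and 52.3, 46.1 and 52.3 in DMSO. After it came BBD1, a nuclease gene, with 56.5, 54.1 and 61.8 FPKM after isoxaben and 168, 180 and 163 after PEP3, CSLB3, a cellulose synthase-like gene, and UGE1, a UDP-glucose epimerase gene of wall sugar supply. In these 8 genes the isoxaben and PEP3 libraries did not overlap, as for 35.9% of all genes tested. Genes called in opposite directions against DMSO are largely bound to be separated in this way. The sum of 69 such genes (0.341%) fell to 25 without DMSO replicate 2 and to 25 without PEP3 replicate 2, and with a change of at least 1 against DMSO in both comparisons it was 2.

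The combined treatment, whose libraries were on neither side of the comparison, stood between the single treatments for most of these genes. Its place was measured as the percentage of the way from the PEP3 mean to the isoxaben mean on the log2(FPKM + 1) scale. Over the 575 genes at least 1 higher after isoxaben the median place was 62.0%, and 409 (71.1%) lay nearer to isoxaben. Over the 111 genes at least 1 higher after PEP3 the median place was 32.1%, 35 (31.5%) lay nearer to isoxaben, and 31 (27.9%) lay beyond PEP3. Over all called genes the median places were 58.3% for those higher after isoxaben and 46.5% for those higher after PEP3, so the sides lay closer to midway when small differences were included. Called jasmonate genes lay about midway, with medians of 52.3% for synthesis, 51.9% for the JAZ repressors, 45.2% for inactivation and 50.7% for outputs. Called touch and calcium genes had a median place of 71.1%, early pattern-response genes 75.7% and stress ERF factors 76.5%, nearer to isoxaben alone. CYP82C2, at 22.0, 28.3 and 24.2 FPKM, and AT5G39120, at 42.0, 35.7 and 46.9 FPKM, stood at the PEP3 level in seedlings given both, while AGP14, at 15.6, 17.7 and 14.2 FPKM, stood near isoxaben.

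**Figure D5:**
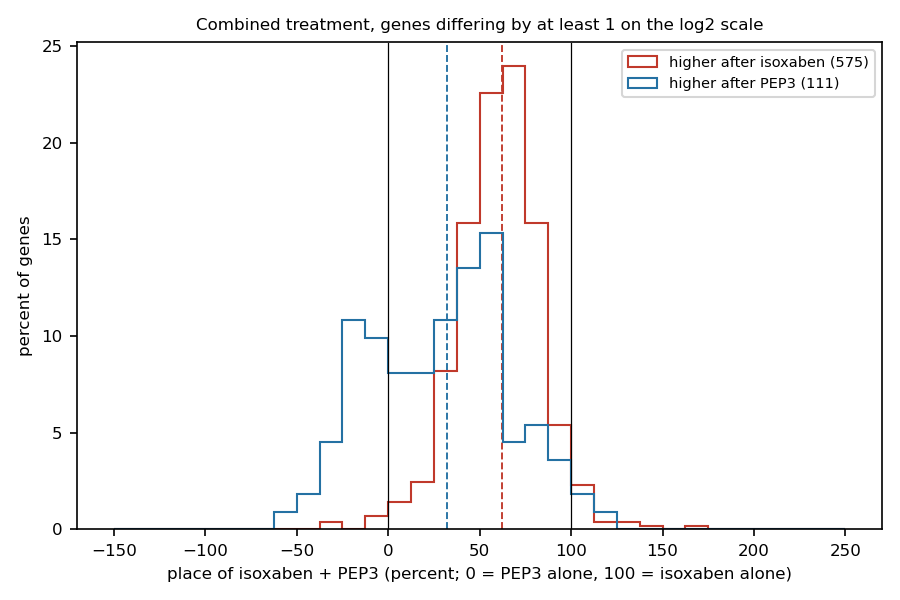
The x axis is the place of the combined treatment, from 0 at PEP3 alone to 100 at isoxaben alone, and the y axis the percentage of genes, for the 575 genes at least 1 higher after isoxaben (red) and the 111 at least 1 higher after PEP3 (blue), with values beyond the axis drawn in the outermost bins. Dashed lines mark the medians, 62.0 and 32.1, and the blue curve has a part to the left of 0.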

How the data were processed

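RNA was sequenced from 12 poly(A)-selected libraries with paired ends, 3 for each of 4 treatments, grouped and numbered by their labels. The authors deposited FPKM for 32833 genes, with gene lengths, positions, biotypes, descriptions and a family column. Alignment used HISAT2 2.0.5 and TAIR10, per the submitters' processing notes, and the counting program, its use of strand and the annotation version are not stated in the sources used here. All deposited values were whole multiples of 1 fragment after multiplication by gene length (100% of values, tolerance 0.01), which gave the fragments per library and per gene. FPKM are not counts, so the test was made on the log2 scale.

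Values were analysed as log2(FPKM + 1) with limma 3.58.1 in R 4.3.3 (lmFit, then eBayes with a trend), 1 mean per treatment over all 12 libraries, no covariates and 8 residual degrees of freedom. The Benjamini-Hochberg adjustment ran over the 20248 genes, and 0.05 was the threshold. On simulated data with 200 changed genes the fit recovered 94% of those changed by 1 and 100% of those changed by 2, with 2.51% false calls. The simulated noise was normal, independent between genes and libraries, and had the spreads of the fit itself. In the real data 22.1% of genes were called, so these rates need not hold there.

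The members and the 55 gene lists were chosen with earlier results of these data known. In naming genes, a panel of receptors, precursors and cellulose synthases was given whatever its values, then the 10 highest and 10 lowest called genes with libraries that did not overlap, 4 genes each way with opposite calls against DMSO, and up to 3 called members each way per list. Other genes given with values were chosen after their values were seen. List symbols were matched to the deposited names and to RefSeq TAIR10.1 symbols, homonyms were set by identifier, and 9 entries without a match were dropped. A gene was called near-identical to another if BLAST 2.17.0 aligned 50% or more of it at 85% identity or more. Alternatives numbered 28, and 12 of them left out 1 library each. Python 3.11.15 with pandas 2.3.3, numpy 2.4.6 and matplotlib 3.10.9 was used otherwise.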

Additional observations from a re-analysis of the deposited data

How the results depend on the processing

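The 4471 genes that differed between isoxaben and PEP3 became 686 when a change of 1 or more was required and 2712 at a stricter adjusted p of 0.01, both fewer by construction, and 3384 (without isoxaben replicate 2) to 4471 when 1 library was left out. The 69 genes with opposite calls against DMSO became 2 when changes of 1 or more were required, 13 at the stricter p, and 44 without a variance trend, and 25 (without DMSO replicate 2 or PEP3 replicate 2) to 82 (without isoxaben replicate 3) when 1 library was left out. They were also few, 37, when DMSO replicate 1 was left out, 31 for DMSO replicate 3, 45 for isoxaben replicate 1 and 43 for PEP3 replicate 3. The cause of these moves was not tested. The main fit did not pair the samples by replicate number. The correlations of the deviations of same-numbered isoxaben and PEP3 libraries were -0.000615, 0.0664 and 0.103. Isoxaben replicates 2 and 3 correlated best with the PEP3 library of the same number. Isoxaben replicate 1 correlated best with PEP3 replicate 2 (0.0345). All these correlations were weak, and they do not settle whether the numbers pair the samples. A fit with the replicate number as a block gave 4295 genes, and 64 with opposite calls.

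Of 211 named genes that were called, none changed direction under the 28 alternatives, 175 were called in all of them except the stricter thresholds, and 36 lost the call in at least 1 other. Many alternatives could not change a direction, because they left the isoxaben and PEP3 means as they were. Among these were the stricter thresholds, other variance settings and the fits without a DMSO or combined library. Most of the genes were also named because they were called. Low values limit the precision of JAZ8, FOX2, FAMT and AT5G22520 in the group where they were near 0.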

Other observations

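Families of the deposited family column gave further groups, chosen after their values were seen from the 128 families with at least 15 tested genes. On the isoxaben side were the MatE transporters, which export small molecules and ions, with 21 of 45 tested higher after isoxaben and 3 after PEP3. Of the AP2 family, which holds the ERF factors, 37 of 102 were higher after isoxaben and 8 after PEP3. The TIR family of immune receptors and related proteins had 28 of 81 higher after isoxaben and 2 after PEP3, and the Exo70 family of exocytosis subunits 7 of 15. On the PEP3 side were the DUF6 transporters, with 16 of 39 higher after PEP3 and 2 after isoxaben, and the CCT family, which holds regulators of flowering and light responses, with 10 of 26 and 1. The Auxin_inducible family, the small auxin-up RNA type, had 13 of 42 higher after PEP3 and 6 after isoxaben, and isoxaben lowered 12 of its members against DMSO. Over all genes tested, 12.3% were higher after isoxaben and 9.76% after PEP3.

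Genes with large differences often lay beside each other. Of the 563 protein-coding genes at least 1 higher after isoxaben, 103 had another of them as the next tested protein-coding gene on the chromosome, and 9.95% of all such neighbours were in the set, which holds 2.87% of the genes. For the 103 genes at least 1 higher after PEP3, 13 had such a neighbour, and 6.8% of neighbours were in the set, which holds 0.525% of the genes. Neighbours are often near-identical copies, among which fragments may be divided uncertainly, and the part of this in the pattern was not tested. The median length was 1510 bases for the isoxaben-high genes and 1214 for the PEP3-high genes, against 1759.5 over all tested protein-coding genes.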
